A study of Mus musculus with 16 samples.

Results

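The genes described here are 7 members of the mouse HoxA cluster, Hoxa3, Hoxa5, Hoxa6, Hoxa7, Hoxa9, Hoxa10 and Hoxa11, and the cofactor genes Meis1 and Pbx3, chosen by name from 41214 genes in the count tables. All 9 were in the tables, and 7 of 9 passed the filter on low counts that left 17470 genes for testing. Hoxa6, with 6 counts over all libraries, and Hoxa11, with 8, did not pass. RNA was sequenced from the leukaemic cells of 16 C57Bl6 mice, all labelled T-ALL (acute lymphoblastic leukaemia of T cells), in 8 groups of 2 mice. Of these, 12 leukaemias were induced by ICN, the activated intracellular part of Notch. The ICN groups lacking p53 (p53 ko) carried Miz1 without its POZ domain (deltaPOZ) with the title suffix Lck, deltaPOZ with the suffix Vav, or wild-type Miz1 (Miz1 wt), and the ICN groups with wild-type p53 (p53 wt) carried the same 3 states. The 4 leukaemias without ICN were all p53 ko and carried deltaPOZ with the suffix Vav or Miz1 wt. Miz1 is a zinc finger transcription factor, and its POZ domain mediates assembly with itself and binding to chromatin. The labels do not explain the suffixes, and they give neither the organ sampled nor age, so a leukaemic thymus cannot be told from an infiltrated organ.

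Hox genes encode homeodomain transcription factors that lie in clusters in the order in which they act along the body axis. In blood, the posterior HoxA genes Hoxa7, Hoxa9 and Hoxa10 are active in stem and progenitor cells and are switched off as cells mature, including during T cell commitment. Meis1 and Pbx3 encode homeodomain proteins of the TALE class, which bind DNA together with Hox proteins and raise their stability and specificity on it. Forced HOXA9 and MEIS1 expression drives acute myeloid leukaemia, and a group of human T-ALL is defined by high HOXA expression.

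The libraries held 36463524 to 68523196 gene counts, so a floor of 3 counts corresponded to 0.0431 to 0.0839 CPM (gene counts scaled to the library total with TMM factors). Trp53 lay at 7.32 to 30.6 CPM in 10 p53 ko libraries, against 70.2 to 113 CPM in 6 p53 wt libraries, as labelled. Zbtb17, which encodes Miz1, lay at 38 to 87.5 CPM with deltaPOZ and at 42.9 to 138 CPM with Miz1 wt, a count over the whole gene that does not check the loss of the POZ domain. The mean log2 CPM of 13 T cell markers lay between 7.07 and 8.99 in all libraries. In such bulk RNA, fewer cells of a type and less RNA per cell cannot be told apart. A pair of libraries stood apart in the Hox genes of all 4 clusters. Replicate 2 of ICN deltaPOZ Vav p53 wt had counts in 38 of 39 Hox genes and replicate 1 of ICN Miz1 wt p53 ko in 32 of 39, against 12 to 21 in the other libraries. These libraries also had the most genes with a count (25387 and 23972, against 19629 to 21466). Alignments that were not unique made up 56.19% and 63.74% of them, against 45.81% to 56.21% in the other libraries.

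**Figure D1:**
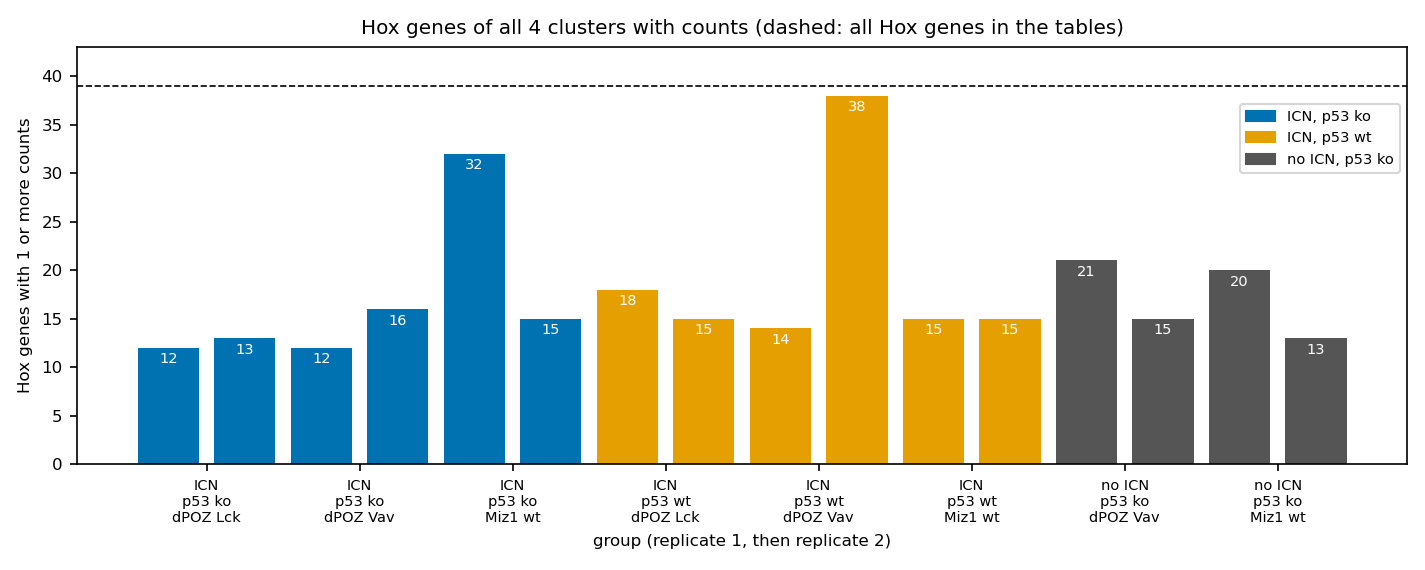
Bars give the number of Hox genes, out of 39 in the tables (dashed line), with 1 or more counts in each of 16 libraries, and colours mark the 3 backgrounds. Replicate 2 of ICN deltaPOZ Vav p53 wt (38) and replicate 1 of ICN Miz1 wt p53 ko (32) lie above the other libraries (12 to 21).

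Stretches before RefSeq starts of the posterior HoxA genes and of Meis1 are shown. Hoxa9 is the member called between leukaemias, Hoxa7 and Hoxa10 flank it, and Meis1 is its cofactor. Each stretch is the 250 bases before a RefSeq start of the gene on GRCm38.p6. It is read 5′ to 3′ on the minus strand, on which all 9 genes lie. For Hoxa9 and Hoxa7 that start is internal, as their windows lie within the gene spans given below. The capitals mark TGGGAA, the core that the Notch partner RBPJ binds. TGGGAA, the MEIS core TGACAG and the PBX-HOX composite TGATTNAT were searched on both strands, and no matches in the printed windows overlapped. The printed windows of Hoxa9, Hoxa7 and Hoxa10 lie at chr6:52227371-52227620, chr6:52218574-52218823 and chr6:52240855-52241104, and that of Meis1 lies at chr11:19018970-19019219.
Hoxa9: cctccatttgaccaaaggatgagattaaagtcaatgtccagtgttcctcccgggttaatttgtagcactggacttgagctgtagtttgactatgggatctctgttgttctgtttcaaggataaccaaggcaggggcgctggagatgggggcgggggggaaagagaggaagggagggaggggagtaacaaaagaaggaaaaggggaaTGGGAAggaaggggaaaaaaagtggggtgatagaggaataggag
Hoxa7: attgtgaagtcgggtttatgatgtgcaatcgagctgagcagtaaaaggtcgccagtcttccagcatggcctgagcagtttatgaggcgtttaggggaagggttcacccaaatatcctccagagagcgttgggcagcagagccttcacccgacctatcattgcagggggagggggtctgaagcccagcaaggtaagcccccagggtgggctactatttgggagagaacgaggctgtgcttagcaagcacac
Hoxa10: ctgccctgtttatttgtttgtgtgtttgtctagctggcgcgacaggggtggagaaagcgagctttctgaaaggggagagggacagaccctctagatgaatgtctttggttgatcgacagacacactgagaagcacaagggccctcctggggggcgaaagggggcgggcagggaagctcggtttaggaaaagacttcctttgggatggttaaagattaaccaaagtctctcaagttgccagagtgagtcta
Meis1: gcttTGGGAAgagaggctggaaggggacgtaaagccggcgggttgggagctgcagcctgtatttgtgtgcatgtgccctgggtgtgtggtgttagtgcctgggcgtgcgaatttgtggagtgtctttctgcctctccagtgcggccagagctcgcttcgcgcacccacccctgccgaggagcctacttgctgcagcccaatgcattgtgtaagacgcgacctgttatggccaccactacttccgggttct
The Hoxa9 window held TGGGAA with its first base 44 bases before the start and 3 CpG dinucleotides, and the Meis1 window held it 246 bases before the start and 13 CpG. None of the 3 motifs was found in the Hoxa7 window or in either of the 2 Hoxa10 windows that RefSeq gives. The members had 9 such windows, for 8 of 9 genes, and Pbx3 had none. TGGGAA was present in 3 of these 9 windows, against 21.6% of 32851 windows of all genes, TGACAG in 1 of 9 against 15.9%, and TGATTNAT in 0 of 9 against 2.8%. A match is a stretch of letters and not a measured binding site.

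RNA of Hoxa7, Hoxa9 and Hoxa10 was scarce in every leukaemia and highest in 3 of them, all ICN p53 ko. Hoxa9 (ENSMUSG00000038227, chromosome 6, 52223100 to 52231089), the HoxA gene most tied to leukaemia, lay at 1.24 and 1.11 CPM in ICN deltaPOZ Lck p53 ko mice, at 0.145 and 0.313 CPM in ICN deltaPOZ Vav p53 ko mice, and at 2.49 and 0.318 CPM in ICN p53 ko mice with Miz1 wt. With wild-type p53 it lay at 0.118 and 0.135 CPM in ICN deltaPOZ Lck mice, at 0.0955 and 0.222 CPM in ICN deltaPOZ Vav mice, and at 0.116 and 0.147 CPM in ICN Miz1 wt mice. Without ICN it lay at 0.0458 and 0 CPM in deltaPOZ Vav mice and at 0 and 0.0287 CPM in Miz1 wt mice. Both Lck libraries and replicate 1 of Miz1 wt among the ICN p53 ko leukaemias were thus high, every other ICN library held a lower but detectable level, and the libraries without ICN had 2 counts or none. These are small numbers of reads. The 3 high libraries held 55, 55 and 89 Hoxa9 counts, which is 69.6% of all 286 counts of the gene.

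Hoxa7 and Hoxa10 were highest in the same 3 libraries. Hoxa7 (ENSMUSG00000038236, chromosome 6, 52214491 to 52221854), the neighbour of Hoxa9, lay at 0.405 and 0.363 CPM in ICN deltaPOZ Lck p53 ko mice, at 0 and 0.0626 CPM in ICN deltaPOZ Vav p53 ko mice and at 0.867 and 0.0397 CPM in ICN p53 ko mice with Miz1 wt. It ranged from 0.0191 to 0.119 CPM in the 6 ICN p53 wt libraries. In mice without ICN Hoxa7 lay at 0.275 and 0.0868 CPM in deltaPOZ Vav mice and at 0.0751 and 0.0287 CPM in Miz1 wt mice. In contrast to Hoxa9, the Hoxa7 levels without ICN fell within the range of the ICN p53 ko libraries, and replicate 1 of deltaPOZ Vav (12 counts) was the highest of these 4. Hoxa10 (ENSMUSG00000000938, chromosome 6, 52231197 to 52240854), on the other side of Hoxa9, had 10 and 7 counts in ICN deltaPOZ Lck p53 ko mice, 0 and 0 in ICN deltaPOZ Vav p53 ko mice and 23 and 5 in ICN Miz1 wt p53 ko mice. In all 6 ICN p53 wt libraries together it had 8 counts, 7 of them in replicate 2 of deltaPOZ Vav, which was one of the libraries that stood apart. The 4 libraries without ICN held 1 count of Hoxa10. The 3 high libraries held 59.3% of all 113 Hoxa7 counts and 74.1% of all 54 Hoxa10 counts.

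**Figure D2:**
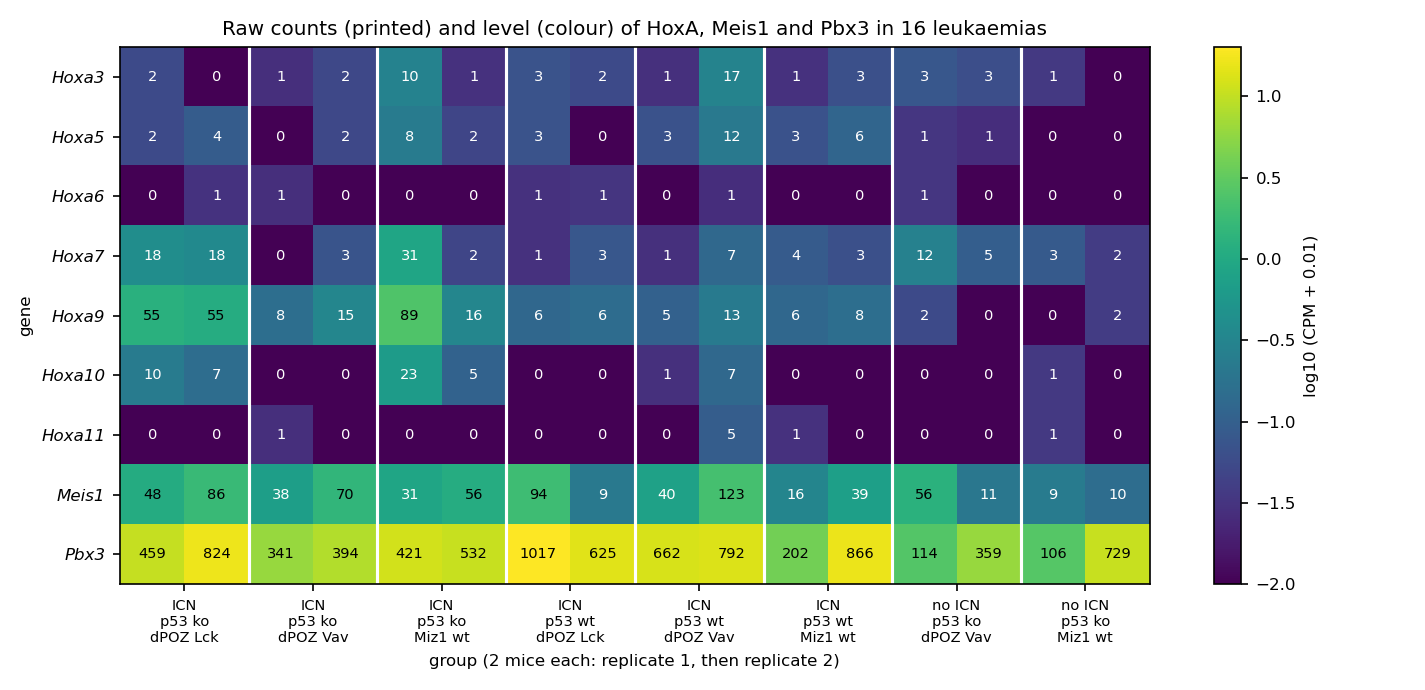
Each cell gives the raw count of a gene (rows) in a library (columns, 2 mice per group), and its colour the level as log10 of CPM plus 0.01. Hoxa7, Hoxa9 and Hoxa10 are brightest in both ICN deltaPOZ Lck p53 ko libraries and in replicate 1 of ICN Miz1 wt p53 ko, while Meis1 (9 to 123 counts) and Pbx3 (106 to 1017 counts) are present in all 16 libraries.

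The other 4 HoxA members had few counts. Hoxa3 (ENSMUSG00000079560), an anterior HoxA gene needed for thymus formation, had 50 counts in all. It peaked at 0.29 CPM in replicate 2 of ICN deltaPOZ Vav p53 wt and at 0.28 CPM in replicate 1 of ICN Miz1 wt p53 ko, the pair that stood apart, and lay at or below 0.0687 CPM elsewhere. Hoxa5 (ENSMUSG00000038253), which acts in lung and axial development, had 47 counts and peaked in the same pair, at 0.205 and 0.224 CPM. Hoxa6 (ENSMUSG00000043219), which lies between Hoxa5 and Hoxa7, never exceeded 1 count in a library. Hoxa11 (ENSMUSG00000038210), needed in limb, kidney and uterus, had 5 of its 8 counts in replicate 2 of ICN deltaPOZ Vav p53 wt and was at 0 in 12 libraries. A level of 0 counts allows up to the floor of 3 counts in that library. Hoxa3 shares 482 bases of exon with Gm28308 on the same strand and Hoxa9 shares 85 with Mir196b. Hoxa3, Hoxa7, Hoxa11 and Meis1 overlap exons of antisense genes (for Hoxa3, 503 bases of Hoxaas2 and shorter stretches of Gm29430, Hoxaas3 and 5730596B20Rik, and for the others Hoxaas3, Hoxa11os and Gm16140), which without a stated strand setting cannot be told apart from them where they overlap.

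Per kilobase of exon, Pbx3 had the highest mean level (1.7 CPM per kb), followed by Meis1 (0.0874), Hoxa9 (0.0731), Hoxa7 (0.0557), Hoxa5 (0.032), Hoxa10 (0.0243), Hoxa3 (0.0108), Hoxa6 (0.00863) and Hoxa11 (0.00404). Pbx3 lay above Meis1 in 16 of 16 libraries. Meis1 lay above Hoxa9 in 12 of 16 and Hoxa9 above Hoxa7 in 10 of 16. From Hoxa9 down, a gene lay above its lower neighbour in 5 to 10 of 16 libraries, so those neighbours were not separated beyond their spread. The median levels of Hoxa9 (0.0252 CPM per kb), Hoxa7 (0.0248) and Hoxa5 (0.0231) were close.

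The comparison of ICN with no ICN leukaemias in the p53 ko background, with Miz1 wt and deltaPOZ Vav mice on both sides, asks how the HoxA genes differ with Notch induction. Hoxa9 rose with ICN, to 0.816 ± 1.12 CPM in ICN mice, against 0.0186 ± 0.0226 CPM in mice without ICN (SD, n = 4 each). The ICN libraries held 8, 15, 89 and 16 counts and those without ICN 2, 0, 0 and 2, so the ranges did not overlap. The log2 fold change was 4.73 (SE 0.92; edgeR quasi-likelihood test, adjusted p = 0.00443), and the ratio of pooled CPM was 35.7 with a counting interval of 13.6 to 133. Hoxa9 was the 1 member of 7 called, where 24.0% of all tested genes were called and 12.9% were called higher. For Hoxa10 this fit returned no usable standard error, so it could not be called, with or without adjustment. With at most 2 counts in libraries without ICN, Hoxa9 passed the filter on low counts through ICN libraries only. The filter itself thus favoured a call in this direction. At an unadjusted p under 0.05, Hoxa9 was again the 1 member, where 37.4% of all genes passed. Non-overlapping ranges with ICN higher were found for 12.1% of tested genes. A change of this kind was therefore common in this comparison. The call held in each of 16 fits that left out 1 library (adjusted p = 0.00235 to 0.0177). Its size rested on few reads, and the log2 fold change was 3.68 without replicate 1 of ICN Miz1 wt p53 ko, 6.32 without replicate 1 of the deltaPOZ Vav mice lacking ICN and 6.17 without replicate 2 of the Miz1 wt mice lacking ICN. Without both libraries that stood apart it was 3.67 (SE 0.83, adjusted p = 0.0195).

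The other posterior genes differed less clearly. Hoxa10 had 28 counts in the 4 ICN libraries, against 1 in the 4 without ICN, a ratio of pooled CPM of 31.2 with a counting interval of 5.17 to 1280. Those counts came from both ICN Miz1 wt libraries (23 and 5), and without replicate 1 of ICN Miz1 wt p53 ko 5 counts remained against 1. Both ICN deltaPOZ Vav libraries were at 0, and the edgeR fit returned no usable standard error. Hoxa7 averaged 0.242 ± 0.417 CPM with ICN and 0.116 ± 0.109 CPM without (SD, n = 4 each) and did not pass (log2 0.33, SE 1.14, edgeR adjusted p = 0.867). Without replicate 1 of ICN Miz1 wt p53 ko its log2 difference was -1.38. Hoxa5 had 12 counts with ICN and 2 without, and Hoxa3 had 14 and 7, and neither passed.

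Markers of other blood cells moved with ICN as well. Of 8 neutrophil markers (among them S100a8, S100a9, Ltf and Ngp) 8 rose, and of 8 erythroid markers (among them Klf1) 8 rose. Their mean log2 CPM lay at 1.44 to 8.87 (neutrophil) and 7.72 to 9.48 (erythroid) in 6 ICN p53 ko libraries, against -3.83 to -2.84 and -2.1 to -0.08 in 4 libraries without ICN. Summed neutrophil markers lay at 50 to 9020 CPM with ICN and at 0.344 to 1.44 CPM without. The ICN deltaPOZ Lck p53 ko libraries among these 6 were outside the ICN comparison. In the compared ICN libraries the means lay at 1.44 to 7.63 (neutrophil) and 7.72 to 9.07 (erythroid). Summed neutrophil markers lay at 50 to 3720 CPM there. The 3 libraries highest in Hoxa9 had neutrophil means of 8.87 and 8.78 (ICN deltaPOZ Lck p53 ko) and 7.63 (replicate 1 of ICN Miz1 wt p53 ko), the highest of all libraries. The levels did not run fully in parallel. Replicate 2 of ICN deltaPOZ Vav p53 ko had a neutrophil mean of 6.98 with Hoxa9 at 0.313 CPM, and replicate 2 of ICN Miz1 wt p53 ko had 1.44, the lowest among ICN libraries, with Hoxa9 at 0.318 CPM. With the neutrophil mean as a covariate, the Hoxa9 log2 difference was 1.69 (SE 1.70, edgeR adjusted p = 0.636), and with the erythroid mean it was 3.25 (SE 5.31, adjusted p = 0.921). Both means separate the p53 ko libraries by ICN without overlap, and these fits called 273 and 0 of all genes, so ICN and these cells cannot be told apart here.

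**Figure D3:**
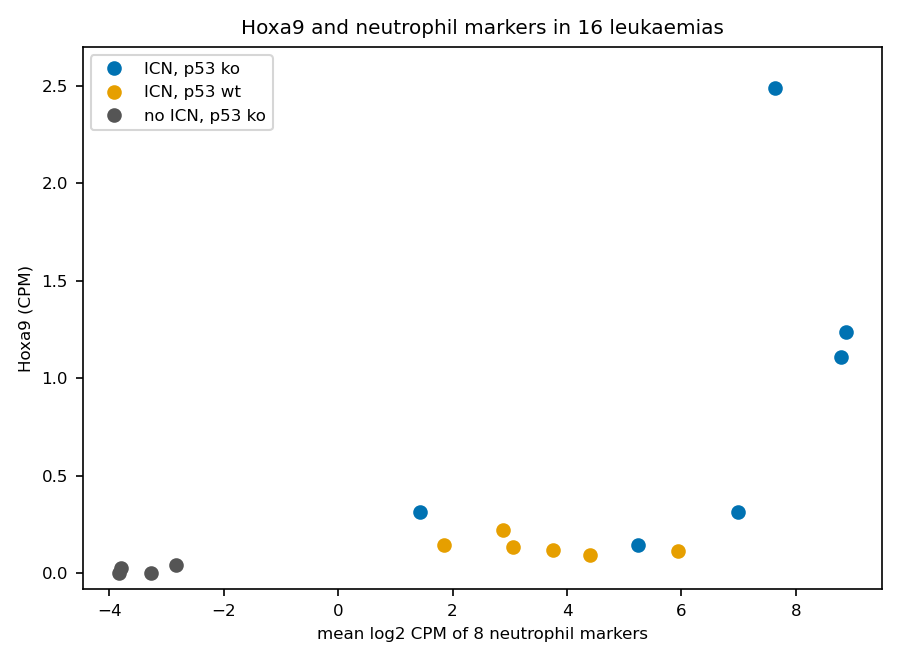
Each point is a library, with the mean log2 CPM of 8 neutrophil markers on the x axis and Hoxa9 in CPM on the y axis, coloured by background. The 3 libraries above 1 CPM have neutrophil means of 7.63 to 8.87, the other ICN libraries lie between 0.0955 and 0.318 CPM over means of 1.44 to 6.98, and the 4 libraries without ICN lie at or below 0.0458 CPM.

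The p53 comparison among ICN leukaemias took 6 p53 ko and 6 p53 wt mice. Of 7 members 0 were called by edgeR, where 0.195% of all tested genes were called. For Hoxa10 this fit returned no usable standard error, so it could not be called. Hoxa9 stood at 0.936 ± 0.886 CPM in p53 ko mice and at 0.139 ± 0.0441 CPM in p53 wt mice (SD, n = 6 each), with 238 and 44 counts. Its log2 difference of 2.36 (SE 0.62, unadjusted p = 0.00266 in the edgeR fit) did not pass (adjusted p = 0.121). It was the only member with an unadjusted p under 0.05, which 15.5% of tested genes reached. The ranges overlapped through replicate 1 of ICN deltaPOZ Vav p53 ko (0.145 CPM) and replicate 2 of ICN deltaPOZ Vav p53 wt (0.222 CPM) and replicate 2 of ICN Miz1 wt p53 wt (0.147 CPM). DESeq2 called Hoxa9 higher in p53 ko mice (log2 2.39, adjusted p = 0.00754), as did edgeR with no filter on low counts (2.35, adjusted p = 0.000674). Without replicate 1 of ICN Miz1 wt p53 ko the log2 difference was 1.65, and with the neutrophil mean as a covariate it was 1.20 (SE 0.81, adjusted p = 0.533). Neutrophil means were 1.44 to 8.87 (median 7.3) in p53 ko mice and 1.85 to 5.94 (median 3.41) in p53 wt mice. All 8 neutrophil markers were higher in p53 ko mice, with log2 differences of 2.77 to 3.43, but 0 of 8 passed. Hoxa7 lay at 0.29 ± 0.332 CPM in p53 ko and 0.0598 ± 0.038 CPM in p53 wt mice (log2 1.55, SE 0.87, edgeR adjusted p = 0.428). The Hoxa7 difference was 0.99 without both libraries that stood apart, 0.41 without replicate 1 of ICN Miz1 wt p53 ko and 0.29 without replicate 2 of ICN deltaPOZ Vav p53 ko. Hoxa10 had 45 counts in p53 ko mice, 23 of them in replicate 1 of ICN Miz1 wt p53 ko, and 8 in p53 wt mice, 7 of them in replicate 2 of ICN deltaPOZ Vav p53 wt.

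**Figure D4:**
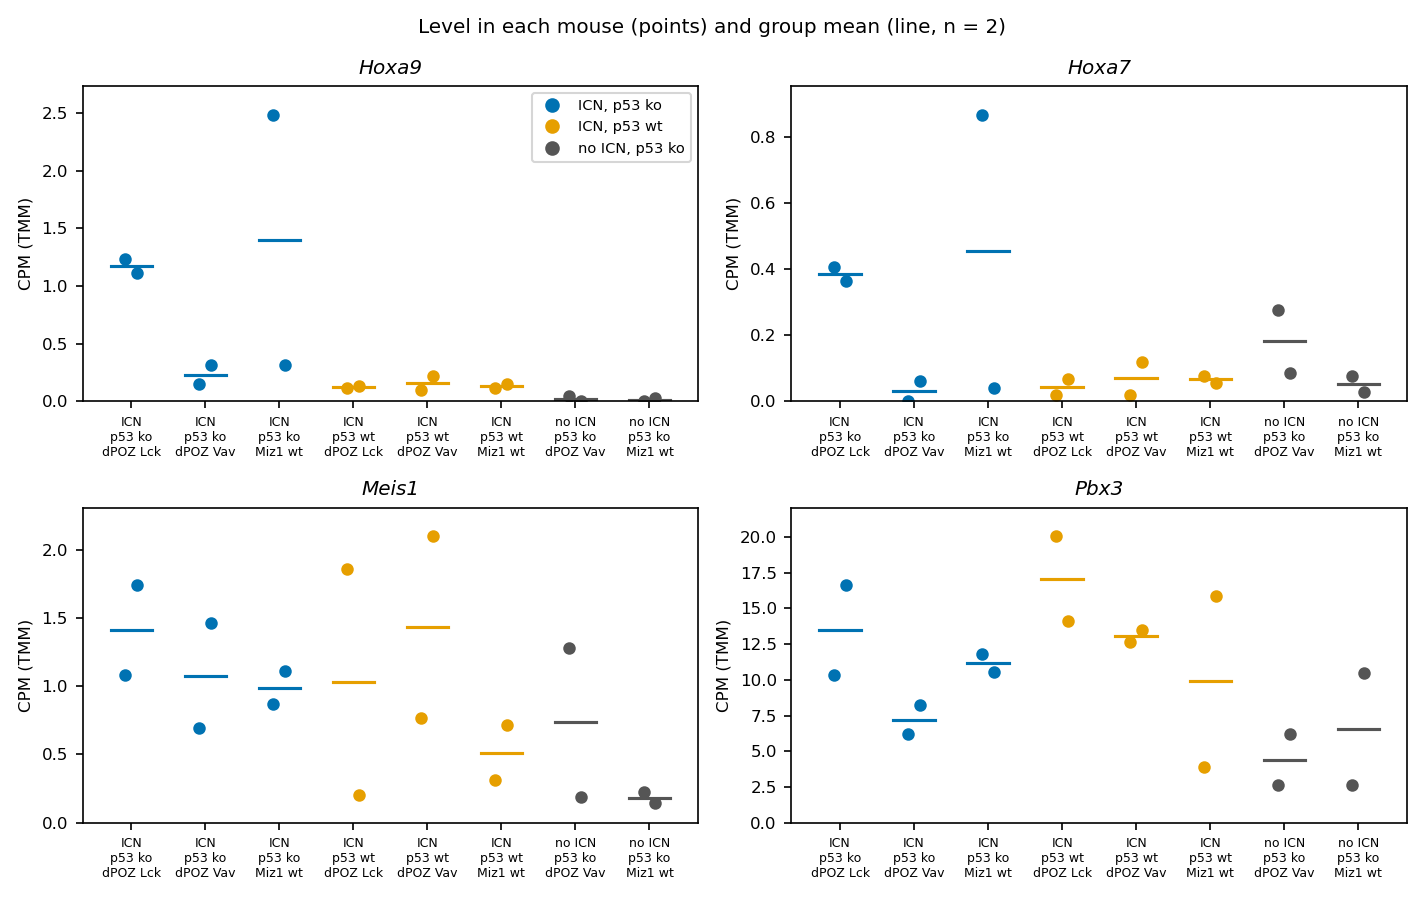
Points are CPM in each mouse and lines the mean of each group (n = 2) for Hoxa9, Hoxa7, Meis1 and Pbx3, over 8 groups ordered by background. Hoxa9 and Hoxa7 are high in 3 ICN p53 ko mice, and Meis1 and Pbx3 spread widely within most groups.

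Each posterior HoxA gene was at 0 counts in some libraries, and neither cofactor gene was. Meis1 (ENSMUSG00000020160, chromosome 11, 18879817 to 19018985) was detected in every library, with 9 to 123 counts. It lay at 1.08 and 1.74 CPM in ICN deltaPOZ Lck p53 ko mice, at 0.691 and 1.46 CPM in ICN deltaPOZ Vav p53 ko mice and at 0.867 and 1.11 CPM in ICN p53 ko mice with Miz1 wt. With wild-type p53 it lay at 1.85 and 0.203 CPM in ICN deltaPOZ Lck mice, at 0.764 and 2.10 CPM in ICN deltaPOZ Vav mice and at 0.311 and 0.714 CPM in ICN Miz1 wt mice. Without ICN it lay at 1.28 and 0.191 CPM in deltaPOZ Vav mice and at 0.225 and 0.144 CPM in Miz1 wt mice. The 6 ICN p53 ko libraries were the most even, while the 2 mice of ICN deltaPOZ Lck p53 wt, and those of deltaPOZ Vav without ICN, lay far apart. Meis1 averaged 1.03 ± 0.334 CPM with ICN and 0.46 ± 0.549 CPM without in the p53 ko background (SD, n = 4 each; log2 1.49, SE 0.75, edgeR adjusted p = 0.171), and 3 of the 4 libraries without ICN lay below all ICN p53 ko libraries. Between p53 ko and p53 wt ICN mice its log2 difference was 0.33 (SE 0.59, adjusted p = 0.833).

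Pbx3 (ENSMUSG00000038718, chromosome 2, 34171457 to 34373142) had 106 to 1017 counts and was the best measured of the members. It lay at 10.3 and 16.6 CPM in ICN deltaPOZ Lck p53 ko mice, at 6.20 and 8.23 CPM in ICN deltaPOZ Vav p53 ko mice and at 11.8 and 10.6 CPM in ICN p53 ko mice with Miz1 wt. With wild-type p53 it lay at 20.1 and 14.1 CPM in ICN deltaPOZ Lck mice, at 12.6 and 13.5 CPM in ICN deltaPOZ Vav mice and at 3.92 and 15.9 CPM in ICN Miz1 wt mice. Without ICN it lay at 2.61 and 6.23 CPM in deltaPOZ Vav mice and at 2.65 and 10.5 CPM in Miz1 wt mice. The lowest levels were in mice without ICN, and their range reached into that of the ICN libraries. The ICN comparison gave 9.19 ± 2.48 CPM with ICN and 5.49 ± 3.72 CPM without (SD, n = 4 each; log2 0.73, SE 0.50, edgeR adjusted p = 0.315). In the p53 comparison Pbx3 stood at 10.6 ± 3.55 CPM in p53 ko and 13.4 ± 5.32 CPM in p53 wt mice (SD, n = 6 each; log2 -0.34, SE 0.41, adjusted p = 0.733).

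For the loss of the Miz1 POZ domain, the main question of the series, edgeR called none of the 7 tested members in any background, and hardly any gene at all. In ICN p53 wt mice 0 of 7 were called, where 0% of all tested genes were called, and 0 of 7 had an unadjusted p under 0.05, which 1.87% of genes reached. In ICN p53 ko mice 0 of 7 were called, against 0.00572% of all genes, and 1 of 7 reached the unadjusted threshold, against 3.78%. Without ICN 0 of 7 were called, against 0%, and 0 reached the unadjusted threshold, against 7.68%. Averaged over the 3 backgrounds 0 of 7 were called, against 0.0172%, and 0 reached the unadjusted threshold, against 4.92%. DESeq2 also called 0 members in each. Hoxa10 had no usable standard error in the ICN p53 wt and averaged edgeR fits, so these could not call it. The member at the unadjusted threshold was Hoxa10 in ICN p53 ko mice, which had 17 counts in 4 deltaPOZ mice and 28 in 2 Miz1 wt mice, 23 of them in replicate 1. Without ICN, Hoxa3, Hoxa5 and Hoxa7 had ranges that did not overlap and were higher with deltaPOZ, 3 of 7 tested members, where 12.8% of all tested genes did so. These were 6, 2 and 17 counts in 2 deltaPOZ Vav mice, against 1, 0 and 5 in 2 Miz1 wt mice.

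Meis1 stood at 1.14 ± 0.669 CPM in 10 deltaPOZ mice and 0.562 ± 0.392 CPM in 6 Miz1 wt mice (log2 1.18, SE 0.56, unadjusted p = 0.0593 in the edgeR fit, adjusted p = 1). By background the log2 differences were 1.24 (SE 0.93) in ICN p53 wt mice, 0.31 (SE 0.89) in ICN p53 ko mice and 1.99 (SE 1.09) without ICN. Single libraries set much of these values. The difference in ICN p53 wt mice was 0.07 without replicate 1 of ICN deltaPOZ Lck p53 wt and 0.79 without both libraries that stood apart. In ICN p53 ko mice it was 0.02 without replicate 2 of ICN deltaPOZ Vav p53 ko. Without replicate 1 of deltaPOZ Vav lacking ICN, the difference in mice without ICN was 0.05 and the average was 0.53. Without ICN, 1 deltaPOZ library (1.28 CPM) lay above both Miz1 wt libraries and the other (0.191 CPM) lay between them. Hoxa9 showed the opposite sign in ICN p53 ko mice, at 0.702 ± 0.553 CPM with deltaPOZ (n = 4) and 1.40 ± 1.53 CPM with Miz1 wt (n = 2; log2 -1.42, SE 0.82, edgeR adjusted p = 1), but at 0.70 without replicate 1 of Miz1 wt. Its averaged log2 difference was -0.36 (SE 0.73), and that of Pbx3 was -0.05 (SE 0.37).

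By the suffix of the deltaPOZ mice, Hoxa9 in ICN p53 ko leukaemias lay at 1.24 and 1.11 CPM in Lck mice and at 0.145 and 0.313 CPM in Vav mice. Cell markers moved with this split, with neutrophil means of 8.87 and 8.78 in Lck mice and 5.25 and 6.98 in Vav mice. Macrophage and dendritic means were 6.25 and 5.99 in Lck mice, the highest of all libraries, and 4.34 and 4.58 in Vav mice. Their part in the split was not tested. In p53 wt leukaemias it lay at 0.118 and 0.135 CPM in Lck mice and at 0.0955 and 0.222 CPM in Vav mice, which overlap. Over both p53 states the log2 difference of Lck from Vav was 1.01 (SE 0.75, edgeR adjusted p = 1), and 0 of 7 members were called, against 0% of all genes, with 0 at an unadjusted p under 0.05, against 3.15%. DESeq2 called 0 members as well. The difference of the ICN effect between Vav and Miz1 wt mice was tested directly, and Hoxa9 had a log2 difference of -2.85 (SE 2.03, adjusted p = 0.755), which was -0.72 without both libraries that stood apart. There 0 of 7 members were called, against 0% of all genes, and 1 of 7, Hoxa7, had an unadjusted p under 0.05, against 6.99%. The difference of the deltaPOZ effect between p53 ko and p53 wt mice called 0 of 7 members, against 0%, with 0 at an unadjusted p under 0.05, against 2.60%. DESeq2 called 0 members in both of these comparisons. Hoxa10 had no usable edgeR standard error in the suffix comparison or in either difference, so it could not be called there.

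**Figure D5:**
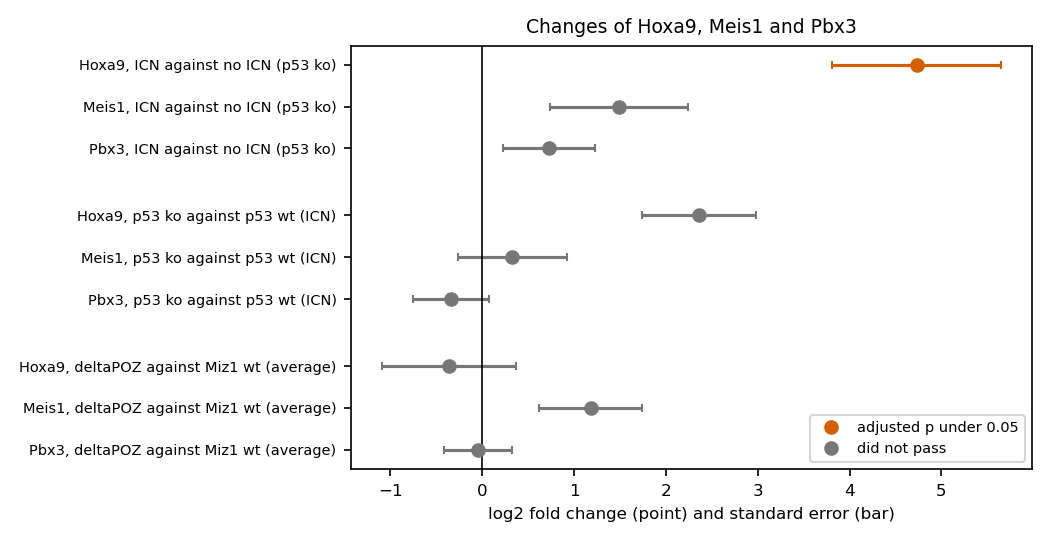
Points are log2 fold changes and bars their standard errors for Hoxa9, Meis1 and Pbx3 in 3 comparisons. Hoxa9 between ICN and no ICN (4.73, SE 0.92) passed an adjusted p of 0.05, and the other 8 values did not.

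Genes around the pathway were described from lists, by their counts in the ICN comparison, where the median log2 change of all genes was -0.02. Of 9 other TALE cofactors, all tested, 2 fell (median log2 of the list -0.20). Meis3, a close relative of Meis1, was lower, at 7.56 ± 2.15 CPM with ICN and 21.8 ± 6.61 CPM without (log2 -1.53, SE 0.28, adjusted p = 0.0029), and so was Tgif2, a repressor of the TALE class, at 10.4 ± 5.9 CPM with ICN and 26.3 ± 12 CPM without (-1.35, SE 0.45, adjusted p = 0.0486). Pbx2 and Pknox1, which are widely expressed and did not pass, lay at 28.7 to 58.3 and 64.7 to 138 CPM over all libraries.

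Of 22 chromatin regulators of HoxA transcription, 19 were tested, 2 rose and 3 fell, a share near the 24.0% of all tested genes called in this comparison (median log2 -0.27, range -0.98 to 0.70). Nsd1, a histone methyltransferase, rose by 0.62 on the log2 scale (SE 0.17, edgeR adjusted p = 0.0234), as did Eed, a Polycomb subunit (0.60, SE 0.17, 0.027). Asxl1 (-0.73, SE 0.15, 0.00586) and Cbx7, a reader of Polycomb marks (-0.59, SE 0.19, 0.0412), fell. Of 22 genes reported downstream of HOXA9 and MEIS1, all tested, 5 rose and 4 fell (median log2 -0.05). Lmo2, a transcriptional adaptor and T-ALL oncogene, stood at 89.5 ± 26.6 CPM with ICN and 1.88 ± 0.761 CPM without (log2 5.64, SE 0.47, adjusted p = 2.28e-05). Erg, a factor of blood stem cells, rose (3.46, SE 0.86, 0.0143), as did Prdm16 (2.59, SE 0.62, 0.0123), while Sox4 fell (-1.29, SE 0.21, 0.00177). In the p53 comparison 1 of the 22 was called. Prdm16, which maintains blood stem cells, stood at 0.577 ± 0.365 CPM in p53 ko and 12.4 ± 12.7 CPM in p53 wt mice (log2 -2.92, SE 0.47, edgeR adjusted p = 0.0413). The groups did not move alike, since Prdm16 lay at 0.586 and 0.666 CPM in ICN deltaPOZ Lck p53 ko mice, against 0.355 and 0.158 CPM in ICN deltaPOZ Lck p53 wt mice. The p53 wt libraries of the other two states lay at 6.17 to 31.9 CPM.

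Other homeobox genes reported as T-ALL oncogenes were mostly at the floor. Of 9 listed, 4 were tested in the ICN comparison, 1 rose and 1 fell. Hhex, a factor of early blood progenitors, rose (log2 2.80, SE 0.64, edgeR adjusted p = 0.00963), and Lhx2 fell (-4.72, SE 0.69, 0.001). Of 12 early thymic progenitor genes 9 rose (median log2 3.56), among them Bcl11a (7.48), Lyl1 (5.62) and Nfe2 (7.70), of which Nfe2 is also an erythroid and megakaryocytic factor. Of 13 T cell markers 4 fell, among them Bcl11b (-1.53), which fixes T cell commitment, and Tcf7 (-0.85). Of markers of further cell types, 7 of 8 B cell, 5 of 7 megakaryocyte, 4 of 6 NK and cytotoxic, 3 of 8 macrophage and dendritic and 2 of 9 endothelial and stromal genes rose, while 2 of these 9 and 1 of 3 tested thymic epithelial genes fell. Their part in the Hoxa9 result was not tested. Of the other Hox clusters, 3 of 10 HoxB genes and 0 of 18 HoxC and HoxD genes passed the filter, and 0 of these HoxB genes were called by edgeR. Hoxb4, a stem cell factor, lay at 0.5 to 5.93 CPM over all libraries. The 18 HoxC and HoxD genes together held 58 counts in replicate 2 of ICN deltaPOZ Vav p53 wt and 43 in replicate 1 of ICN Miz1 wt p53 ko, against 0 to 33 in the other libraries.

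The genes whose pattern was closest to the members were found by the root mean square difference of log2 CPM (prior count 2), each gene centred on its mean. Over 16 libraries C1rl (0.571), Dram1 (0.627) and Pirb (0.643) were closest to Hoxa9, whose own spread by the same measure was 1.652. Over the 12 ICN libraries Plcb1 (0.456) and Pla2g7 (0.476) were closest. For Meis1, with a spread of 1.151, the closest over 16 libraries were Pon3 (0.563), Dpysl3 (0.593) and Eml6 (0.602), and over ICN libraries Itga1 (0.335) and Nynrin (0.339). For Pbx3, with a spread of 0.875, Tfrc (0.419), Vasn (0.482) and Wdfy3 (0.516) were closest over 16 libraries and Acadsb (0.316), Kdm7a (0.363) and Akap7 (0.378) over ICN libraries. The choice of genes at the low counts of Hoxa9 was unstable, and 0 of 3 over 16 libraries were the same with a prior count of 0.5.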

How the data were processed

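RNA sequencing of 16 mouse T-ALL samples was analysed from the authors' deposited raw counts per Ensembl gene. The submitters' processing notes list mm10 and GRCm38 as builds, and as tools TopHat2 2.0.10, HTSeq, SAMtools and DESeq. Which annotation release and strand setting were used in counting is not given in the sources used here. Totals that name no gene (not unique 45.8% to 63.7% of a library, outside genes 14.2% to 21.5%, ambiguous 0.138% to 0.331%) were left out, and genes kept 20.6% to 39.6%. Names and coordinates came from a GENCODE annotation of GRCm38, which named 40340 of 41214 identifiers.

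Counts were fitted with edgeR 4.0.16 in R 4.3.3 (TMM factors 0.952 to 1.05, filterByExpr, 8 group means, 8 residual degrees of freedom, common dispersion 0.208). Each comparison was a quasi-likelihood F test, with Benjamini-Hochberg adjustment over 17470 tested genes and a threshold of 0.05. The standard error is the log2 fold change divided by the square root of F. DESeq2 1.42.0 was an alternative. Since samples are separate mice, the p-values reflect the spread among mice. Numbers of replicates were given in accession order as names. The comparisons share libraries and 1 estimate of spread per gene. Counting intervals are exact, at 95%, and cover counting error only, as do floors of 3 counts. The 2 libraries of a group had 1.65% to 3.11% identical counts among tested genes, and none was a repeat deposit by that measure.

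The members and all 20 gene lists were chosen with earlier results of these data known. All 9 members are named. Of the other lists, up to 4 called genes per list and comparison are named by lowest p, and for Hoxa9, Meis1 and Pbx3 the 3 closest protein-coding genes. Some genes that this rule selects are not reported here. Promoter windows came from RefSeq (GRCm38.p6). The fit was tested on simulated counts for the ICN comparison (17470 genes). Recovered were 23.8% of 80 genes changed by log2 1, 68.8% of 80 changed by 2 and 92.5% of 40 changed by 4. There were 5 false calls among 16853 unchanged genes. The changed genes were drawn from genes with a higher mean level than every member but Pbx3 (0.921 CPM for Meis1, 0.408 CPM for Hoxa9). These rates therefore do not cover Meis1 or the HoxA members.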

Additional observations from a re-analysis of the deposited data

How the results depend on the processing

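No paired analysis was made, as the samples are separate mice and the labels state no pairing. The count of members called in the p53 comparison was 1 (Hoxa9) with DESeq2 and 1 (Hoxa9) with no filter on low counts, against 0. In the ICN comparison it was 0 with the neutrophil marker mean and 0 with the erythroid marker mean as a covariate, against 1. Both covariates, and the fits without the 2 libraries that stood apart, were chosen after seeing the data. All other counts of members were unchanged under relative log expression or upper-quartile factors, a filter of 1 CPM in 2 libraries, a fit of the compared groups alone and each of 16 fits that left out 1 library.

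Directions turned round for log2 differences that did not pass. Without both libraries that stood apart, Hoxa9 was 0.70 (deltaPOZ, ICN p53 ko) and 0.23 (deltaPOZ, average) and Hoxa7 -1.38 (ICN). With the neutrophil covariate, Pbx3 was 0.12 (deltaPOZ, average) and 0.09 (p53), and Hoxa7 -0.39 (p53) and -4.78 (ICN). With the erythroid covariate, Meis1 was -3.88 and Pbx3 -5.80 (ICN). The cause was not tested. Over fits that left out 1 library, Hoxa9 ranged from -2.23 to 0.70 (deltaPOZ, ICN p53 ko), -1.44 to 0.64 (deltaPOZ, average) and -5.78 to 0.46 (difference of the ICN effect), Pbx3 from -0.30 to 0.40 (deltaPOZ, average) and -0.59 to 0.09 (p53), and Hoxa7 from -1.58 to 0.84 (ICN).

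Counts of all genes called depended on the tool. In the order of the ICN p53 wt, ICN p53 ko, no ICN and averaged deltaPOZ comparisons, DESeq2 called 15, 123, 234 and 131 genes and edgeR with no filter 211, 464, 746 and 502, against 0, 1, 0 and 3, with 327, 660, 1341 and 859 at an unadjusted p under 0.05. For the difference of the deltaPOZ effect, the difference of the ICN effect and the suffixes, DESeq2 called 30, 80 and 18 genes and edgeR with no filter 378, 613 and 277, against 0 each, with 454, 1221 and 551 at an unadjusted p under 0.05. For p53 they called 1068 and 1588, against 34, which became 149 in the fit of the compared groups alone, 4 without both libraries that stood apart, and 3 and 11 with the neutrophil and erythroid covariates. For ICN the fit of the compared groups alone called 2360 and the fit without both libraries 2642, against 4194, and over fits that left out 1 library the counts were 2524 to 4643. Depth limits the HoxA genes, of which Hoxa9 reached 3 counts in 12 of 16 libraries, Hoxa7 in 11 and Hoxa10 in 5.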

Other observations

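Other genes of the HoxA cluster were outside the tested set but had counts in single mice without ICN, noticed after their values were seen. Hoxa4, an anterior gene next to Hoxa3, had 96 counts (1.67 CPM) in replicate 2 of deltaPOZ Vav without ICN, against 4 in replicate 1, and 8 and 2 in the Miz1 wt mice lacking ICN. The 12 ICN libraries held 0 to 5 counts of Hoxa4 each. The same library had the most counts of the noncoding genes Hotairm1 (26 counts, 0.451 CPM) and Hoxaas3 (21 counts, 0.365 CPM), while Hoxa3, Hoxa5 and Hoxa9 had 3, 1 and 0 counts there. Hoxa13, the most posterior gene, had 40 counts (1 CPM) in replicate 1 of Miz1 wt without ICN, against 1 in replicate 2 of that group, and 8 and 1 in the deltaPOZ Vav mice lacking ICN. In ICN libraries it had 0 to 5 counts. In 3 of the 4 mice without ICN, Hoxa4 or Hoxa13 had more counts than in any ICN library.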
